A study of Mus musculus with 2 samples.

Results

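The 9 genes described here code for the sensors of cytosolic nucleic acid Ddx58 (RIG-I), Ifih1 (MDA5), Dhx58 (LGP2) and Zbp1, the transcription factors Irf7, Irf9 and Stat2, and the type I interferon receptor chains Ifnar1 and Ifnar2. They were chosen by symbol from the 32285 genes of the tables, and all 9 were found. Their unique molecular identifiers (UMIs, each standing for 1 captured RNA molecule) were counted in barcodes with at least 500 UMIs and 300 genes, and were compared across cell classes and between both diets. RIG-I and MDA5 bind double-stranded RNA with different features and signal through the mitochondrial adaptor MAVS, LGP2 modulates both, and ZBP1 binds Z-form nucleic acid and can start necroptosis and apoptosis. Type I interferon binds the IFNAR1 and IFNAR2 chains, after which STAT2 and IRF9 act within the complex ISGF3 at interferon-stimulated response elements. IRF7 drives interferon alpha genes, and most of these sensors and factors are themselves interferon-induced, so the pathway feeds back on itself. In tumors it is studied because type I interferon acts on dendritic cells, NK cells and T cells.

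Leukocytes came from subcutaneous tumors of MC38, a mouse colon adenocarcinoma line, grown in female C57BL/6J mice that were 6 to 8 weeks old at injection. The normal diet group stayed on normal food, and the ketogenic diet group received ketogenic food from day 4. At day 14 the tumors of both groups were dissociated and depleted of dead cells, leukocytes were enriched by their CD45 on magnetic beads, and 5 mice were pooled into 1 library per diet. With 1 library per diet no spread between mice was measurable, and no test between diets was made. Each ratio below is a comparison of these 2 libraries, and its exact 95% interval covers counting error only.

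The libraries held 5671 normal-diet and 5944 ketogenic-diet cells, with medians of 4200 and 3922 UMIs and of 1637 and 1484 genes per cell. Only 7 barcodes were shared between the libraries. Marker gates that use none of the 9 genes sorted the cells into 16 classes, of which 8 had at least 50 cells in each library and carry the results. Macrophages made up 17.7% of normal-diet and 6.16% of ketogenic-diet cells (1003 and 366 cells), monocytes 18.4% and 17.5% (1045 and 1041), and NK cells 15.6% and 26.3% (883 and 1565). The other 5 were intermediate phagocytes between the macrophage and monocyte gates (399 and 241 cells), neutrophils (173 and 132), CD8 T cells (380 and 467), other T cells (118 and 197), and a class of tumor or stroma markers (72 and 106). A gate on summed markers is a range and not a cell type: 78 and 31 macrophages and 117 and 57 intermediate phagocytes lay within 20% of the edge between them. The edge between intermediate phagocytes and monocytes is not in these counts of intermediate phagocytes. Barcodes with markers of 2 lineages (705 and 791) and barcodes that no gate took (649 and 718) were left out. Levels are in CPM (UMI counts scaled to a total of 1000000 in each class and library). In macrophages the median sums of neutrophil, NK cell and T cell markers were 0 in both libraries, while those of monocyte markers were 2743 and 2643 CPM. Although CD45-positive cells had been enriched, 70 of the 72 and 104 of the 106 cells of the tumor or stroma class held Rhox5, the tumor marker of that gate. Their Ptprc (the gene of CD45) was at 33.2 and 29.2 CPM. The class had medians of 32164 and 31701.5 UMIs per cell, a depth at which a marker is readily found. Of the other markers of that gate, Krt8 and Krt18 were at 0 CPM in both libraries. Cald1 was at 678 and 610 CPM, Sparc at 299 and 349, Col3a1 at 95.3 and 97.0 and Col1a1 at 118 and 27.0. The class is therefore not named as tumor cells alone.

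RefSeq promoter windows (GRCm38.p6, 250 bases before to 50 after a start site) were found for 7 of the 9 genes, in 8 windows. Ddx58, Ifih1, Dhx58 and Stat2 reached the lowest diet ratios below, Irf7 is the pathway's amplifier, and Ifnar2 had no diet ratio past 1.5-fold. The windows of 5 genes are therefore printed, while Dhx58 and Zbp1 are only named. Each is written 5′ to 3′ on the gene's strand, and capitals mark a match to one of 2 motifs, searched on both strands: GAAA, any 2 bases, GAAA (a pair of interferon-response half-sites, the ISRE type) or TTCNNNGAA (the STAT dimer type of site). The windows lie at chr4:40239776-40240075 (minus strand) for Ddx58, chr2:62646206-62646505 (minus) for Ifih1, chr10:128270248-128270547 (plus) for Stat2, chr7:141266375-141266674 (minus) for Irf7 and chr16:91372533-91372832 (plus) for Ifnar2.
Ddx58: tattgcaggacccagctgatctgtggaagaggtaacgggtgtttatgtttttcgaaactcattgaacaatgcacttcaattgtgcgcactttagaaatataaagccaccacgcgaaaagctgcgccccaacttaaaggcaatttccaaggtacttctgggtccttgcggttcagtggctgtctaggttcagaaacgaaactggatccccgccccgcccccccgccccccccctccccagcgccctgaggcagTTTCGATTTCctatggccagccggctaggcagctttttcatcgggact
Ifih1: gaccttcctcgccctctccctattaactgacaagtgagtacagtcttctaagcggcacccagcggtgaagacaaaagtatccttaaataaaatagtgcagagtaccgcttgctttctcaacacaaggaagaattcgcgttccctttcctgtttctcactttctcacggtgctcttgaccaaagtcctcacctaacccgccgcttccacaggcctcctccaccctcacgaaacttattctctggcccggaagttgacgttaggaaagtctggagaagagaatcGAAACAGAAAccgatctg
Stat2: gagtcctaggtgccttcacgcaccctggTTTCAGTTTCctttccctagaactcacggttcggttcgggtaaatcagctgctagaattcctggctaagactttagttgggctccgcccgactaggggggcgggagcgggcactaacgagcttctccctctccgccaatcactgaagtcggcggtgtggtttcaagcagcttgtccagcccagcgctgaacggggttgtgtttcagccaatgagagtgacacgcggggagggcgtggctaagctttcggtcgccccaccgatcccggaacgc
Irf7: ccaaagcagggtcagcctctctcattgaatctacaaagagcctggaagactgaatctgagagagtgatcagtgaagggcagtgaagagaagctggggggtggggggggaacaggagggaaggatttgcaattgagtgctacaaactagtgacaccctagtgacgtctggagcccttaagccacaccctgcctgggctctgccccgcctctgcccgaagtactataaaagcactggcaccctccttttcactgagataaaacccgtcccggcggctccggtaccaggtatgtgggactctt
Ifnar2: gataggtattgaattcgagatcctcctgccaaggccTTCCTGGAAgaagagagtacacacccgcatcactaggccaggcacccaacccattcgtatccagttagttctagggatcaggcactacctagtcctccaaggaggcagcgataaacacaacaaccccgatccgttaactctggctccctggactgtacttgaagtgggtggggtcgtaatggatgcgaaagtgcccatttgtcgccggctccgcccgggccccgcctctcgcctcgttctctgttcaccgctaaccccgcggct

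The half-site pair was present in the windows of Ddx58, Ifih1 and Stat2. It read GAAATCGAAA on the minus strand at position 3 from the start site in Ddx58, GAAACAGAAA on the plus strand at 33 in Ifih1, and GAAACTGAAA on the minus strand at -222 in Stat2, where the start site is position 1. Of all 32851 RefSeq windows, 1131 (3.44%) held such a pair. TTCNNNGAA was present in the windows of both receptor chains, as TTCCTGGAA at -214 in Ifnar2 and TTCACGGAA at -5 in Ifnar1, and in 2726 windows overall (8.30%). The windows of Irf7 and Irf9 held neither motif. Both windows of Irf9 began past the gene's annotated start, chr14:55603571, at chr14:55603735 and chr14:55604329, so the stretch before that start was not searched. A match describes letters in a window and does not show that a factor binds there.

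All 9 genes are protein-coding in the GENCODE annotation of GRCm38. The sensors lie at chr4:40203773-40239828 (Ddx58, 18 exons in its principal transcript), chr2:62595798-62646255 (Ifih1, 16 exons), chr11:100694884-100704271 (Dhx58, 13 exons) and chr2:173206612-173218923 (Zbp1, 8 exons), all on the minus strand. The factors lie at chr7:141262706-141266481 on the minus strand (Irf7, 10 exons) and at chr14:55603571-55610030 (Irf9, 9 exons) and chr10:128270559-128292849 (Stat2, 24 exons) on the plus strand. Both receptor chains lie on the plus strand of chromosome 16, at chr16:91485238-91507441 (Ifnar1, 11 exons) and chr16:91372783-91405589 (Ifnar2, 9 exons). Irf9 shares its span with Rnf31 and Ifnar2 with Gm21970 on the same strand, so reads of the shared stretches are uncertain. Irf7 overlaps Phrf1 and Dhx58 overlaps Dhx58os on the opposite strand, and whether the counting used strand is not given in the sources used here.

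Every one of the 9 genes was detected in all 8 classes of both libraries, and 7 of them were highest in phagocytes or monocytes in the normal-diet library. The exceptions were Ddx58 and Irf9, which were highest in neutrophils. The same gene is compared across classes, never one gene with another, since captured UMIs depend on the transcript.

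**Figure D1:**
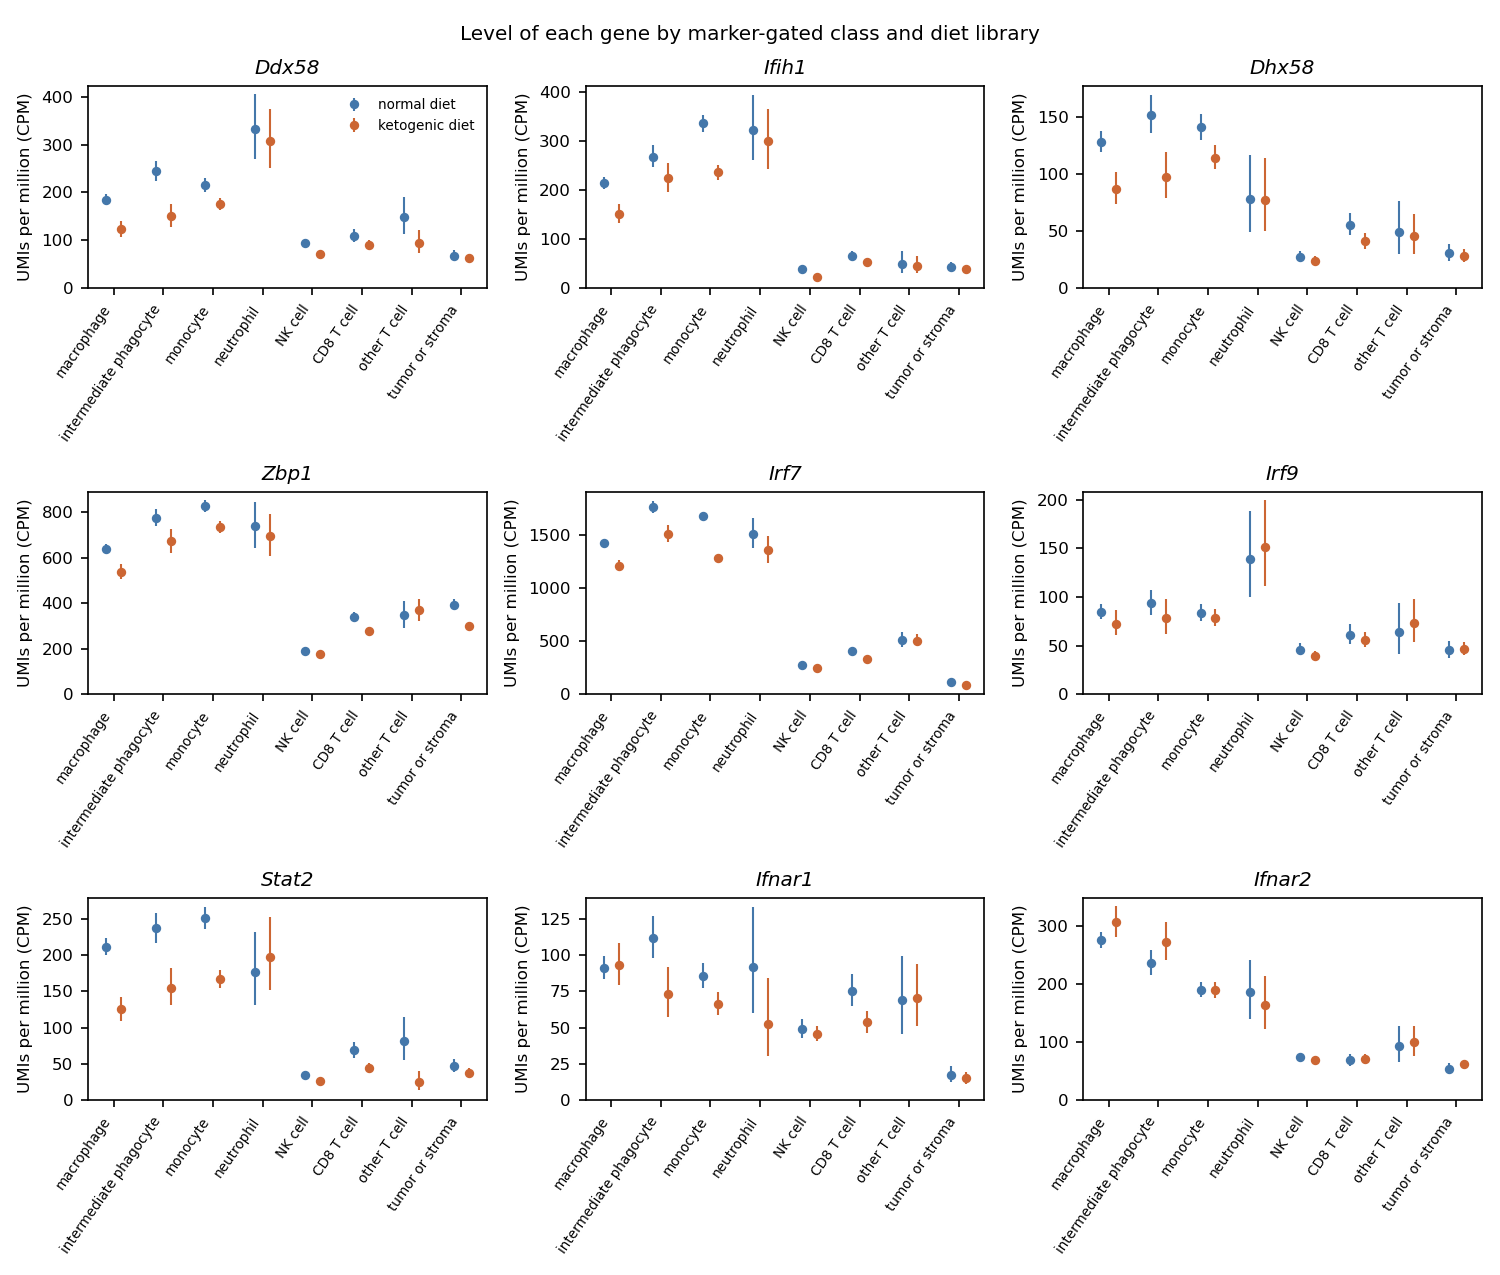
Level of each of the 9 genes in CPM (vertical axis, linear, own scale per panel) in 8 marker-gated classes, for the normal diet (blue) and the ketogenic diet (orange) library. Points are the summed UMIs of a class and bars are exact 95% Poisson intervals. Irf7 lies between 1206 and 1758 CPM in the 4 myeloid classes and between 86.8 and 115 CPM in the tumor or stroma class.

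Among the sensors, Ddx58 (RIG-I, which recognizes RNA with a 5′ triphosphate) stood at 332 CPM in normal-diet neutrophils and 308 CPM in ketogenic-diet neutrophils. In the other myeloid classes it ranged from 184 to 244 CPM in the normal-diet and from 123 to 176 CPM in the ketogenic-diet library. Its lowest level, 68.1 and 63.4 CPM, was in the tumor or stroma class, so that neutrophils were 4.87-fold (3.75 to 6.30) and 4.86-fold (3.81 to 6.16) above it. In the normal-diet library macrophages and other T cells, and CD8 T cells and NK cells, were neighbours whose levels did not differ beyond counting error. The neutrophil level rested on 98 and 100 UMIs in cells with medians of only 995 and 1229 UMIs.

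Ifih1 (MDA5, which recognizes long double-stranded RNA) was at 336, 322, 268 and 214 CPM in normal-diet monocytes, neutrophils, intermediate phagocytes and macrophages. In ketogenic-diet cells the same classes stood at 236, 299, 224 and 151 CPM. Lymphoid and tumor classes formed a separate low range, from 39.6 to 65.3 CPM in the normal-diet and from 23.7 to 53.5 CPM in the ketogenic-diet library, with NK cells lowest in both. Monocytes were 8.49-fold (7.28 to 9.94) above NK cells in the normal-diet library and 9.96-fold (8.44 to 11.8) above them in the ketogenic-diet library.

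Dhx58 (LGP2, which lacks the signalling domains of the other RIG-I-like receptors) was also lowest in NK cells, at 27.2 and 24.0 CPM. Intermediate phagocytes were highest in the normal-diet library at 152 CPM and monocytes in the ketogenic-diet library at 114 CPM, and in both libraries these classes did not differ from each other beyond counting error. Its neutrophil level of 77.9 and 77.1 CPM rested on 23 and 25 UMIs.

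For Zbp1, the Z-nucleic acid sensor, monocytes were highest at 828 and 734 CPM and NK cells lowest at 189 and 174 CPM. The tumor or stroma class reached 394 CPM in the normal-diet library, 2.08-fold (1.90 to 2.29) above NK cells, and 302 CPM in the ketogenic-diet library, 1.73-fold (1.59 to 1.88) above them. In the same class Irf7 was at its lowest level of the 8 classes. Restricting the class to its cells with Rhox5 left Zbp1 at 394 and 302 CPM and Irf7 at 110 and 84.3 CPM. The 2 cells per library without Rhox5 had 774 and 753 CPM of Irf7, from 12 and 11 UMIs. Free RNA, read from barcodes of at most 100 UMIs, held 455 and 399 CPM of Zbp1 and 852 and 569 CPM of Irf7. The class thus took rank 5 of 8 for Zbp1 in the normal-diet and rank 6 in the ketogenic-diet library, and the last rank for Irf7 in both.

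The transcription factor Irf7, which interferon induces and which drives interferon alpha transcription, had the widest span between classes. Intermediate phagocytes, monocytes, neutrophils and macrophages stood at 1758, 1676, 1511 and 1420 CPM in the normal-diet library and at 1511, 1283, 1354 and 1206 CPM in the ketogenic-diet library. Other T cells, CD8 T cells and NK cells followed at 509, 402 and 270.1 CPM, and at 504, 329 and 241 CPM. Each of these steps was larger than counting error in both libraries, except that neutrophils did not differ from the class below them. Intermediate phagocytes were 15.3-fold (13.6 to 17.4) above the tumor or stroma class in the normal-diet and 17.4-fold (15.4 to 19.6) above it in the ketogenic-diet library.

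Stat2 (the ISGF3 subunit that supplies the activation domain) was between 176 and 251 CPM in the normal-diet myeloid classes and between 34.7 and 81.2 CPM elsewhere. In the ketogenic-diet library the ranges were 125 to 197 CPM and 25.0 to 43.9 CPM. Monocytes were highest in the normal-diet library, and neutrophils, which did not differ from monocytes beyond counting error, in the ketogenic-diet library. Irf9 (the DNA-binding subunit of ISGF3) had a flatter profile, with neutrophils at 139 and 151 CPM, all other classes between 39.4 and 93.6 CPM, and the neutrophil level 3.08-fold (2.09 to 4.45) and 3.83-fold (2.77 to 5.21) above the lowest class. The neutrophil values rested on 41 and 49 UMIs.

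The receptor chain Ifnar2, the high-affinity chain, was ordered differently from the factors: macrophages were highest among the 8 classes, at 277 and 307 CPM, followed by intermediate phagocytes at 237 and 273 CPM and monocytes at 189.8 and 189.4 CPM. Plasmacytoid dendritic cells, a small class of 27 and 36 cells, stood higher still at 420 and 481 CPM from 46 and 76 UMIs. Ifnar1 (the chain that binds TYK2) was at 85.5 to 112 CPM in normal-diet myeloid classes and at 17.1 and 15.1 CPM in the tumor or stroma class. Normal-diet intermediate phagocytes, its highest of the 8 classes there, were 6.51-fold (4.66 to 9.31) above that level. In the ketogenic-diet library macrophages were highest of the 8, at 93.1 CPM. Plasmacytoid dendritic cells again stood higher, at 146 and 177 CPM of Ifnar1 from 16 and 28 UMIs. From intermediate phagocytes to NK cells no neighbouring pair in the normal-diet order of Ifnar1 differed beyond counting error.

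The other 8 classes had under 50 cells in 1 or both libraries and are given as values only. Plasmacytoid dendritic cells, known for IRF7-dependent interferon production, held 1188 and 830 CPM of Irf7, a ratio of 0.698 (0.544 to 0.897) from 130 and 131 UMIs. Type 2 conventional dendritic cells held 1108 and 910 CPM of Irf7, and CCR7-positive dendritic cells 784 and 706 CPM. B cells, with 13 and 16 cells, gave 0 UMIs of Ifih1, Dhx58, Irf9, Stat2 and Ifnar2 in both libraries, where a count of 0 allows up to 3 UMIs in each.

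Between the diets, the 9 genes were mostly lower in the ketogenic-diet library within classes. The lowest measured ratios were those of Stat2 in macrophages (0.591), Ifih1 in NK cells (0.598) and Ddx58 in intermediate phagocytes (0.616). Of 72 combinations of a gene and a class, 63 had at least 100 UMIs over both libraries and are called measured. Of these, 54 had a ratio of ketogenic over normal below 1, as did 59.6% of all 38844 measured combinations of a gene and a class. In 33 of the 63 the ratio was below 1 with an interval that left out 1, as for 20.3% of all combinations. That share also depends on how many UMIs a gene has. Only 1 ratio above 1 had an interval that left out 1, that of Ifnar2 in macrophages, where 11.6% of all combinations did. In all, 10 combinations were at least 1.5-fold lower and 0 at least 1.5-fold higher. Of all measured genes in a class, from 4.53% to 12.3% were at least 1.5-fold lower and from 0.994% to 13.7% higher. By class, ratios below 1 made up from 45.4% of all measured genes in other T cells to 63.8% in macrophages, and the counts below are set beside such shares.

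**Figure D2:**
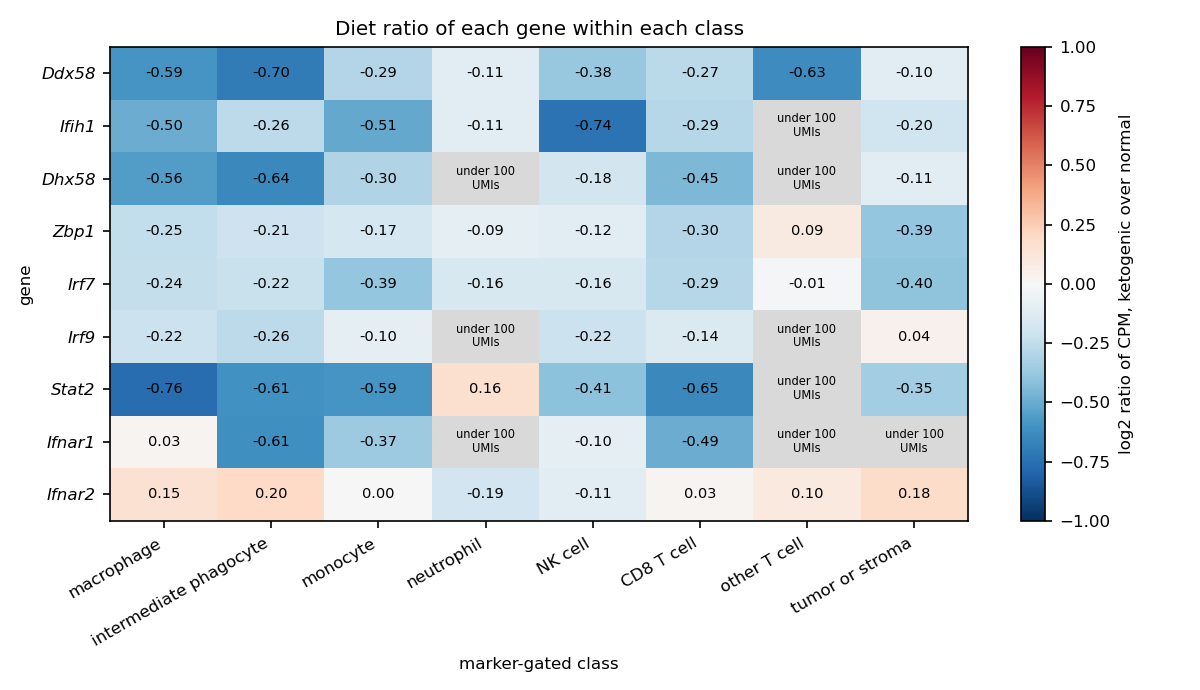
Log2 ratio of CPM, ketogenic over normal, for each of the 9 genes (rows) in the 8 classes (columns); blue is lower and red higher in the ketogenic-diet library, and gray cells had under 100 UMIs. Stat2 in macrophages has the lowest value, -0.76, and the row of Ifnar2 stays between -0.19 and 0.20.

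In macrophages 2 of the 9 genes, Stat2 and Ddx58, were at least 1.5-fold lower, where 10.0% of 6544 measured genes were; 0 were higher, against 1.28%. Stat2 stood at 211 CPM (1177 UMIs) in the normal-diet and 125 CPM (219 UMIs) in the ketogenic-diet library, a ratio of 0.591 (0.510 to 0.684). Ddx58 stood at 184 and 123 CPM, a ratio of 0.666 (0.572 to 0.772) that lies at the edge of the 1.5-fold limit, and Dhx58, just short of it, at 128 and 86.8 CPM, a ratio of 0.678 (0.565 to 0.808). Ifih1 was at 214 and 151 CPM (0.708, 0.617 to 0.809). Zbp1 and Irf7 had ratios nearer 1, 0.841 (0.782 to 0.904) and 0.849 (0.809 to 0.891). Ifnar1 was level at 91.3 and 93.1 CPM, and Ifnar2 was 1.11-fold (1.01 to 1.23) higher. The median log2 ratio of the 9 genes was -0.25, beside -0.12 over all measured genes.

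In intermediate phagocytes 4 of the 9, Ddx58, Dhx58, Stat2 and Ifnar1, were at least 1.5-fold lower, where 10.6% of 3979 genes were; 0 were higher, against 1.91%. Ddx58 stood at 244 and 150.1 CPM (ratio 0.616, 0.509 to 0.741), and Stat2 at 237 and 155 CPM (0.656, 0.543 to 0.787). Dhx58 stood at 152 and 97.3 CPM (0.640, 0.504 to 0.807) and Ifnar1 at 112 and 73.0 CPM (0.654, 0.495 to 0.855). The class held 399 and 241 cells, and keeping barcodes of 2 lineages left 2 of these 4 past the limit. Ifnar2 again had a ratio above 1, at 1.15 (0.988 to 1.34), which did not leave out 1. The median log2 ratio was -0.26, beside -0.09 over all measured genes.

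In monocytes only Stat2 was at least 1.5-fold lower, at 251 CPM (1106 UMIs) and 167 CPM (690 UMIs), a ratio of 0.664 (0.603 to 0.731), where 7.49% of 6386 genes were; 0 were higher, against 1.33%. It no longer passed the limit when the median gene was set to no change, with a log2 ratio of -0.51. All 9 genes had a ratio below 1, as did 63.4% of all measured genes, among them Ifnar2 at 0.998 (0.905 to 1.10), whose log2 ratio turned to 0.08 with the median gene set to no change. Ifih1 was at 336 and 236 CPM (0.702, 0.647 to 0.761) and Irf7 at 1676 and 1283 CPM (0.766, 0.739 to 0.793), the lowest of its ratios in the 8 classes apart from 0.758 in the tumor or stroma class. The makeup of the monocytes differed between libraries: those below 1000 CPM of Chil3 and Hp, both genes of classical monocytes, were 52.7% of normal-diet and 30.1% of ketogenic-diet monocytes. Below and above that line, Stat2 had log2 ratios of -0.65 and -0.55, Ifih1 of -0.55 and -0.49, and Irf7 of -0.28 and -0.37. Irf9 differed in sign, at 0.22 and -0.29.

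In neutrophils 0 of 6 measured genes were past 1.5-fold in either direction, where 12.3% of 958 genes were lower and 13.7% higher. Stat2 was at 176 and 197 CPM from 52 and 64 UMIs, a ratio of 1.12 (0.765 to 1.65), or 0.16 on the log2 scale, which turned to -0.54 when barcodes of 2 lineages were kept. With 98 and 100 UMIs of Ddx58 behind a ratio of 0.928 (0.696 to 1.24), a difference of the size seen in macrophages lies just outside the interval. Median UMIs per neutrophil were 995 and 1229, and their median monocyte marker sums were 1377 and 3202 CPM; the part of these gaps in the ratios was not tested.

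Among lymphocytes, NK cells had 1 of 9 genes at least 1.5-fold lower, Ifih1, where 4.63% of 7341 genes were, and 0 higher, against 0.994%. It stood at 39.6 CPM (185 UMIs) and 23.7 CPM (166 UMIs), a ratio of 0.598 (0.482 to 0.742), which no longer passed the limit by the mean of each cell's CPM (log2 ratio -0.56). All 9 ratios in NK cells were below 1, where 61.3% of all measured genes were, from 0.598 for Ifih1 to 0.933 (0.784 to 1.11) for Ifnar1. In CD8 T cells 1 of 9, Stat2, was past the limit, at 68.6 and 43.9 CPM (0.639, 0.511 to 0.800), where 4.97% of 5938 genes were, and 0 were higher, against 1.72%. With barcodes of 2 lineages kept, Stat2 had a log2 ratio of -0.44 and did not pass. Ifnar1 (0.710, 0.577 to 0.874) and Dhx58 (0.734, 0.577 to 0.935) had the next lowest ratios there. In other T cells, CD3-positive cells that passed no gate for CD4, CD8 or gamma-delta genes, 1 of 4 measured genes, Ddx58, was lower at 148 and 95.2 CPM (0.645, 0.444 to 0.937), where 4.53% of 1435 genes were, and 0 were higher, against 4.67%. Under the stricter gate Ddx58 had under 100 UMIs there and gave no ratio. Irf7 in these cells was at 509 and 504 CPM. Stat2 was not among the measured genes there, with 33 and 16 UMIs, and stood at 81.2 and 25.0 CPM.

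In the tumor or stroma class 0 of 8 measured genes were past the limit, where 5.29% of 6263 genes were lower and 2.68% higher. Irf7 stood at 115 and 86.8 CPM (0.758, 0.644 to 0.893) and Zbp1 at 394 and 302 CPM (0.765, 0.701 to 0.835). An estimated 5.09% and 3.96% of the UMIs of this class came from free RNA. That RNA held more Irf7 than the class itself, 852 and 569 CPM. The part of free RNA in the ratio of Irf7 was not tested. Ddx58, at 68.1 and 63.4 CPM, had a ratio of 0.931 (0.760 to 1.14).

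Read by gene across the classes, Stat2 was at least 1.5-fold lower in 4 of its 7 measured classes and Ddx58 in 3 of 8. Ifih1 was so in 1 of 7, Dhx58 in 1 of 6 and Ifnar1 in 1 of 5. Of all measured genes in a class, 4.53% to 12.3% were, and a single class is too few to set apart from such a share. Irf7 had a ratio below 1 in all 8 classes, from 0.758 to 0.990, except that its log2 ratio in other T cells turned to 0.12 in thinned cells, and it passed the limit in none. Irf9 had measured ratios between 0.834 and 1.03, and each of their 6 intervals held 1. Ifnar2 had ratios between 0.877 and 1.15. The genes of the ISGF3 complex thus differed from each other within macrophages: Stat2 had a log2 ratio of -0.76 (interval -0.97 to -0.55) and Irf9 of -0.22 (-0.51 to 0.07). Ddx58, Ifih1 and Stat2, the genes whose windows held the half-site pair, had log2 ratios of -0.59, -0.50 and -0.76 in macrophages. Irf7, Irf9, Ifnar1 and Ifnar2, whose windows did not, had -0.24, -0.22, 0.03 and 0.15. This order did not hold in every class. In intermediate phagocytes Ifnar1 had -0.61 and Ifih1 -0.26. In monocytes Ddx58, Ifih1, Stat2, Irf7 and Irf9 had -0.29, -0.51, -0.59, -0.39 and -0.10. In the tumor or stroma class these 5 genes had -0.10, -0.20, -0.35, -0.40 and 0.04. No relation between letters and ratio was tested.

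Other groups of genes also differed between the libraries, in both directions. Mitochondrial genes had median log2 ratios from -0.79 to -0.37 over the 8 classes and ribosomal protein genes from 0.05 to 0.54. Genes of the longest length quartile had medians from -0.27 to -0.16 and those of the shortest from 0.06 to 0.24. Ifih1 is in the longest quartile, Ddx58, Zbp1, Irf9, Stat2 and Ifnar1 are in the next, and Dhx58, Irf7 and Ifnar2 are in the second shortest. Macrophages of the third quartile had a median of -0.18, beside -0.76 for Stat2 and -0.22 for Irf9 of the same quartile. An estimated 13.3% and 5.59% of macrophage UMIs, 18.9% and 7.22% of intermediate phagocyte UMIs and 12.0% and 7.65% of monocyte UMIs came from free RNA, as read from genes of other lineages. Subtracting the free RNA profile gave Stat2 log2 ratios of -0.81, -0.70 and -0.62 in these 3 classes, further from 0 than before. These values are of Stat2 only. Over all genes and classes recomputed under that setting, 61 of 63 ratios stayed within their counting interval and 2 moved outside it. The part of free RNA, transcript length and the other properties in the ratios was not tested.

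Counts per cell showed the same genes at low copy. In cells thinned to 1000 UMIs, so that depth is equal, the 9 genes together gave 3 or more UMIs in 61.0% (57.9 to 64.1) of normal-diet and 47.7% (42.3 to 53.1) of ketogenic-diet macrophages. The mean sum there was 3.45 and 2.88 UMIs, of which Irf7 gave 1.51 and 1.32 and Zbp1 0.71 and 0.56. The sum thus reads mostly these 2 genes. Shares of cells with 3 or more UMIs were 69.6% and 54.3% in intermediate phagocytes and 60.9% (57.9 to 63.9) and 48.1% (45.0 to 51.3) in monocytes. NK cells had 11.1% (9.05 to 13.4) and 8.79% (7.40 to 10.3). In neutrophils, where 87 of 173 and 48 of 132 cells were too shallow to thin, the shares were 58.1% (47.0 to 68.7) and 48.8% (37.7 to 60.0). These intervals count cells of 1 library per diet and hold no spread between mice. Whether 2 of them overlap is no test between the diets.

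**Figure D3:**
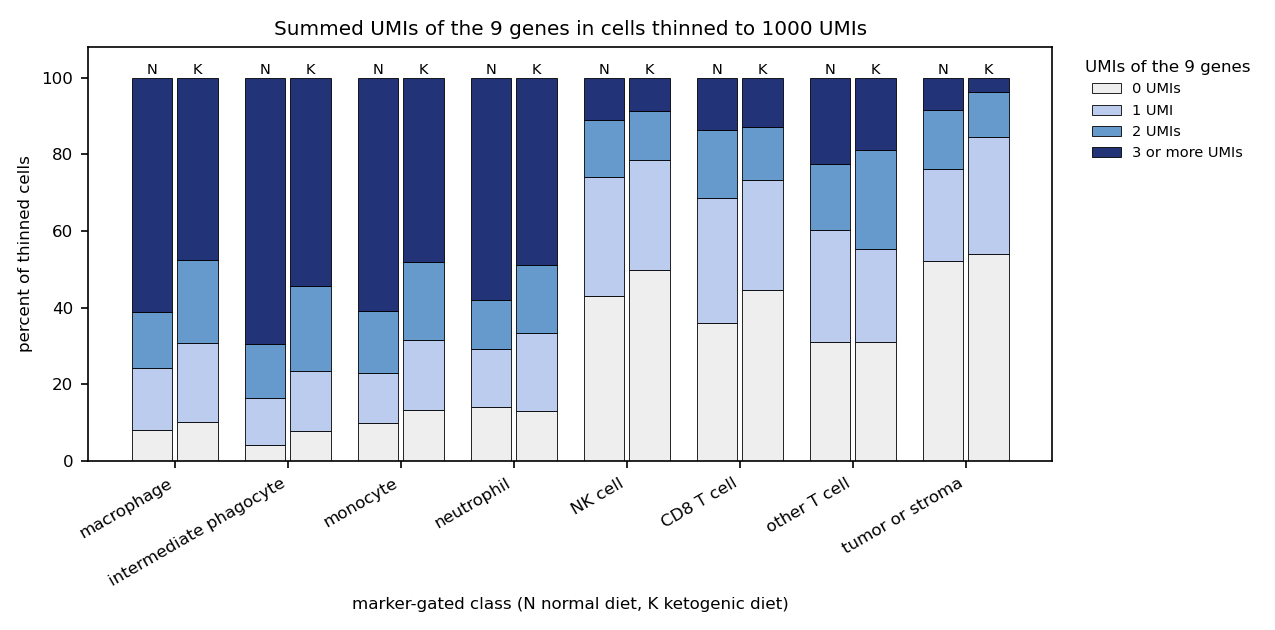
Share of cells (vertical axis, percent) by the summed UMIs of the 9 genes after thinning each cell to 1000 UMIs, for the normal (N) and ketogenic (K) diet library of each class. The darkest part, 3 or more UMIs, is 61.0% and 47.7% of macrophages and 11.1% and 8.79% of NK cells.

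Irf7 was spread unevenly between monocytes. With a thinned mean of 1.82 UMIs in normal-diet monocytes, 31.4% of cells had no Irf7 UMI, where an even spread would leave 16.2%; in ketogenic-diet monocytes 41.5% had none, where an even spread would leave 28.2%. Stat2 UMIs were present in 21.1% of normal-diet and 14.3% of ketogenic-diet thinned monocytes, too few to read its spread between cells. Without thinning, 55.3% of normal-diet and 41.2% of ketogenic-diet monocytes held a Stat2 UMI, at medians of 3648 and 3402 UMIs per cell. In NK cells, at medians of 4068 and 3230 UMIs, 14.8% and 10.2% held one.

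Over all cells of a library, each of the 9 genes was lower in the ketogenic-diet library, from a ratio of 0.563 (0.538 to 0.588) for Stat2 to 0.843 (0.796 to 0.892) for Irf9. These sums mix the level within classes with the makeup of the library: macrophages supplied 15.6% of normal-diet and 4.40% of ketogenic-diet UMIs, and NK cells 13.1% and 17.6%. Holding the levels of the normal-diet library and changing only the makeup gave log2 ratios of -0.26 for Irf7, -0.24 for Stat2 and -0.25 for Ifnar2. Holding the makeup and changing only the levels gave -0.33, -0.61 and 0.00. The whole-library log2 ratio was -0.62 for Irf7, -0.83 for Stat2 and -0.33 for Ifnar2, so the makeup term was the larger one for Ifnar2 and the level term for Stat2. In sums of this kind fewer cells of a class and less RNA per cell cannot be told apart without the classes. Both terms covered all barcodes, with those of 2 lineages and those that no gate took as 1 class each. These held 24.9% and 30.2%, and 9.83% and 10.8%, of UMIs. A change of makeup within such a class counts in the level term. In barcodes of 2 lineages, for example, summed macrophage markers were at 3996 and 1792 CPM.

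**Figure D4:**
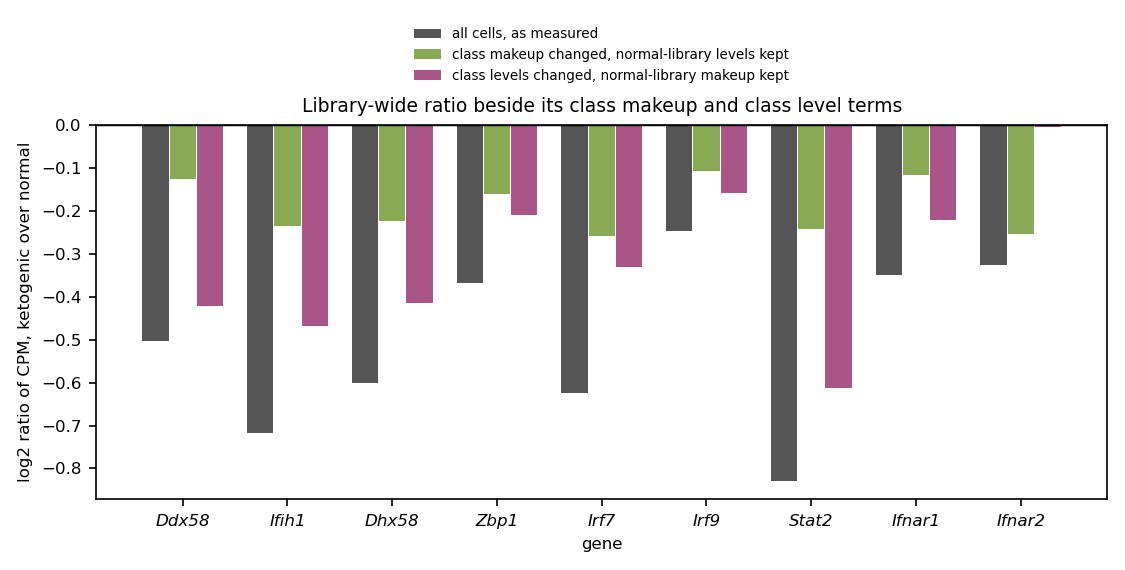
Log2 ratio of CPM, ketogenic over normal (vertical axis), for each of the 9 genes over all cells (gray), with only class makeup changed (green) and with only class levels changed (purple). For Stat2 the 3 bars are -0.83, -0.24 and -0.61, and for Ifnar2 they are -0.33, -0.25 and 0.00.

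RNA of the interferons themselves was nearly absent from both libraries. The 20 type I and type III interferon genes of the table gave 9 UMIs in normal-diet and 44 UMIs in ketogenic-diet cells, and 17 of the 20 gave 0 in both, which allows up to 3 UMIs each. Ifnb1, the interferon beta gene that RIG-I and MDA5 signalling induces, gave 7 UMIs in 5 normal-diet cells and 42 UMIs in 4 ketogenic-diet cells. Of the 42, 39 came from 2 cells of the tumor or stroma class and 32 from 1 of them, so the difference rests on single cells.

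Of 40 other genes of the pathway (adaptors and kinases of induction, interferons, receptor signalling, and effectors that share ligands or partners with the sensors), 29 were measured in macrophages, and 5 of them were at least 1.5-fold lower and 0 higher, beside 10.0% and 1.28% of all measured genes. The counts lower and higher were 2 and 0 of 24 in intermediate phagocytes (10.6% and 1.91% of all genes), 1 and 0 of 30 in monocytes (7.49% and 1.33%), 3 and 1 of 14 in neutrophils (12.3% and 13.7%) and 0 and 0 of 27 in NK cells (4.63% and 0.994%). They were 1 and 1 of 24 in CD8 T cells (4.97% and 1.72%), 2 and 1 of 12 in other T cells (4.53% and 4.67%) and 0 and 1 of 19 in the tumor or stroma class (5.29% and 2.68%). Several of these counts are near or below the share over all genes, as in intermediate phagocytes and monocytes. The median log2 ratio of the measured genes in macrophages was -0.39, beside -0.12 over all genes. Eif2ak2, the double-stranded RNA-dependent kinase PKR, was at 179 and 98.2 CPM in macrophages (ratio 0.548, 0.464 to 0.645) and was also lower in neutrophils (217 and 142 CPM) and other T cells (128 and 81.2 CPM). Adar, which edits double-stranded RNA and so limits MDA5 sensing, was at 83.6 and 52.5 CPM in macrophages and at 97.9 and 43.6 CPM in intermediate phagocytes (0.446, 0.313 to 0.621). Ripk1, a kinase of cell death that can bind ZBP1, was at 62.9 and 40.5 CPM in macrophages and 49.8 and 31.8 CPM in CD8 T cells. Irf8, a myeloid lineage factor, was lower in macrophages (368 and 234 CPM) and intermediate phagocytes (367 and 234 CPM) and higher in neutrophils (132 and 200.4 CPM). Socs3, an inhibitor of cytokine receptor signalling, was lower in neutrophils (400 and 253 CPM) and higher in CD8 T cells (49.4 and 76.8 CPM) and other T cells (73.8 and 122 CPM).

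Likeness of class profiles was read as Pearson's r of log2(CPM + 1) over 19 sums of a class and a library with at least 50 cells, among 8764 genes; the sums share libraries, and r is a description only. Ddx58 was most like Parp10 (0.965), Ifit1 (0.961) and Oas3 (0.946), and Irf9 most like Ifit3b (0.961), Ifit1 (0.941) and Ifit3 (0.936). Of these, Ifit1, Ifit3, Ifit3b and Oas3 are well-known interferon-stimulated genes. Irf7 was most like Slfn2 (0.977), Slfn5 (0.976) and Evi2a (0.970), and Stat2 most like Trim25 (0.968), Znfx1 (0.966) and Plekhf2 (0.965). Zbp1 was most like Pxk (0.966), Gbp2 (0.958) and Reep3 (0.952). Ifih1 was most like Kdm7a (0.981), Il6ra (0.980) and Tgm2 (0.979), and Dhx58 most like Slc43a2 (0.955), Cysltr1 (0.951) and Bach1 (0.946). The receptor chains had other neighbours, Ifnar2 Apobec1 (0.954), Ctss (0.949) and Arl11 (0.949), and Ifnar1 Slc9a3r1 (0.959), Sema4d (0.948) and Pnrc2 (0.942). Among the 9 genes, Ifih1 and Stat2 were the most alike pair (0.943) and Ifnar1 and Zbp1 the least (0.468).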

How the data were processed

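The authors deposited, for each library, a table of raw UMI counts by gene and barcode. It came from Cell Ranger, whose version is 4 per the file headers. The submitters' processing notes instead give 6.0.0, and list Seurat 3.2.0, GRCm38 and mm10 as well. The gene annotation is not given in the sources used here. Of the gene IDs, 99.6% were found in GENCODE vM21. Libraries summed to 37575996 and 42710007 UMIs. Values were computed here with scipy 1.17.1, numpy 2.4.6 and pandas 2.3.3 under Python 3.11.15, and plotted with matplotlib 3.10.9. Barcodes of at least 500 UMIs and 300 genes were gated on summed marker CPM, with gate levels set from the marker sums. For example, macrophages had at least 5000 CPM of C1qa, C1qb, C1qc, Ms4a7 and Apoe, and monocytes at least 3000 CPM of their markers with under 2000 CPM of macrophage markers. No doublet caller was run, and barcodes with markers of 2 lineages were left out. UMIs were summed per class and library and given as CPM with exact Poisson intervals, as ratios with exact conditional intervals and as shares with Clopper-Pearson intervals, at 95% and for counting error only. A gene was measured with at least 100 UMIs over both libraries in a class and called past 1.5-fold. Scripts were tested on simulated data. The named genes are all 9 members, other pathway genes past 1.5-fold in at least 2 classes, and the 3 genes most like each member. The members and lists were chosen with earlier results of these data known. Ratios were recomputed under 11 other settings (cell filters, scaling, free RNA, thinning, gates, the limit for measured genes) and 1 more chosen after seeing the data.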

Additional observations from a re-analysis of the deposited data

How the results depend on the processing

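Of 668 ratios of the 9 genes recomputed under the alternatives, 638 stayed within their counting interval, 30 moved outside it, and 0 past 1.5-fold changed sign. Among the 638 are 63 from a limit of 50 instead of 100 UMIs. That limit only sets which genes are measured and cannot move a ratio. Counts of genes at least 1.5-fold lower changed as follows. The median log2 ratio of all genes was -0.12 in macrophages and -0.11 in monocytes. Macrophages had 1 gene instead of 2 with cells of at least 1000 UMIs and 500 genes, with at most 10% mitochondrial UMIs, without mitochondrial and ribosomal protein genes, with the median gene set to 0, and after thinning. Intermediate phagocytes had 2 instead of 4 with the median gene set to 0, with the stricter gate and with mixed barcodes kept, and 1 after thinning, where Dhx58 and Ifnar1 had 76 and 63 UMIs. Monocytes had 0 instead of 1 without mitochondrial and ribosomal protein genes and with the median gene set to 0, 3 after thinning and 2 with mixed barcodes kept. NK cells had 0 instead of 1 by the mean of each cell's CPM, and 2 with mixed barcodes kept. CD8 T cells had 2 instead of 1 by the mean of each cell's CPM, and 0 with mixed barcodes kept. The tumor or stroma class had 1 instead of 0 by the mean of each cell's CPM and with the stricter gate. Thinning left only 35 ratios with at least 100 UMIs, and none in the tumor or stroma class. It gave counts of 0 in NK cells, CD8 T cells and other T cells because Ifih1, Stat2 and Ddx58 there kept only 79, 34 and 38 UMIs and were no longer measured, so these counts say nothing of the ratios. The count of 0 in other T cells under the stricter gate has the same origin, since Ddx58 had under 100 UMIs. Causes of the other shifts were not tested. Weighting monocytes below and above the Chil3 and Hp line equally, chosen after seeing the data, gave Stat2 a log2 ratio of -0.60. No paired analysis was possible because each diet had 1 library, and for the same reason no library could be left out. Depth limits the neutrophil and other T cell ratios most.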
